A study of Mus musculus with 6 samples.

Results

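The desmosome genes of NME cells and of the AG1478-resistant AGR cells derived from them were examined. The 10 genes are Dsp, Jup, Pkp1, Pkp2, Pkp3, Pkp4, Dsg2, Dsg3, Dsc2 and Dsc3, out of 19938 genes that had a probe set of their own. They were chosen by name, with earlier results of these data known. For each, the brightest probe set annotated to that gene alone was used, and each of the 10 had exactly 1 such probe set. AGR cells came from a colony of NME cells that grew in 3D culture in spite of 1 µM AG1478, an inhibitor of the EGFR kinase, and were afterwards expanded in 2D culture, so they represent 1 colony. NME cells are NMuMG mouse mammary gland cells transformed by EGFR that was delivered with a virus and selected with puromycin, and AGR cells descend from them. Both were grown in serum and insulin, and resistant lines were kept without drug once established. For each cell line, 3 Affymetrix Mouse Gene 1.0 ST arrays were run, and all values below are log2 of the deposited intensities. Whether the 3 arrays per line stand for separate cultures is not stated, so a p-value here reflects the scatter among these arrays, which may be technical, and their small number limits precision.

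Desmosomes are spot-like junctions that join the keratin filaments of neighbouring epithelial cells. Their adhesion molecules are cadherins, the desmogleins and the desmocollins. Inside the cell these bind plakoglobin (Jup) and the plakophilins, and desmoplakin (Dsp) links this plaque to keratin. Simple epithelia are known for Dsg2, Dsc2 and Pkp2, whereas Dsg3, Dsc3 and Pkp1 are typical of stratified epithelia such as skin.

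The plaque genes Dsp and Jup and the desmoglein gene Dsg2 fell in AGR cells, and the plakophilin gene Pkp1 rose. Thus 3 of the 10 genes were lower and 1 was higher at an adjusted p under 0.05 from limma, whereas 11.6% of all genes tested were lower and 12.6% were higher. The other 6 did not pass. A fold change (FC) above 2, the threshold of the study, was reached in addition by Dsp, which was lower as were 1.5% of all genes, and by Pkp1, which was higher as were likewise 1.5%. No overlap between the 3 AGR and the 3 NME values was seen for 5 of the 10 genes and for 36.4% of all genes. The median log2 FC of the 10 genes was -0.08, and that of all genes was -0.02. Calls were frequent among bright genes. Of the 11678 genes with a mean log2 intensity of at least 7.61, which is the median over all probe sets, the share called lower was 17.6% and the share called higher 19.7%, compared with 3.08% and 2.60% of the 8260 genes below it. Of the desmosome genes 7 were in the bright part, and Dsg3, Dsc2 and Dsc3 were in the dim part. In bulk RNA, fewer cells with a transcript and less transcript per cell cannot be told apart.

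**Figure D1:**
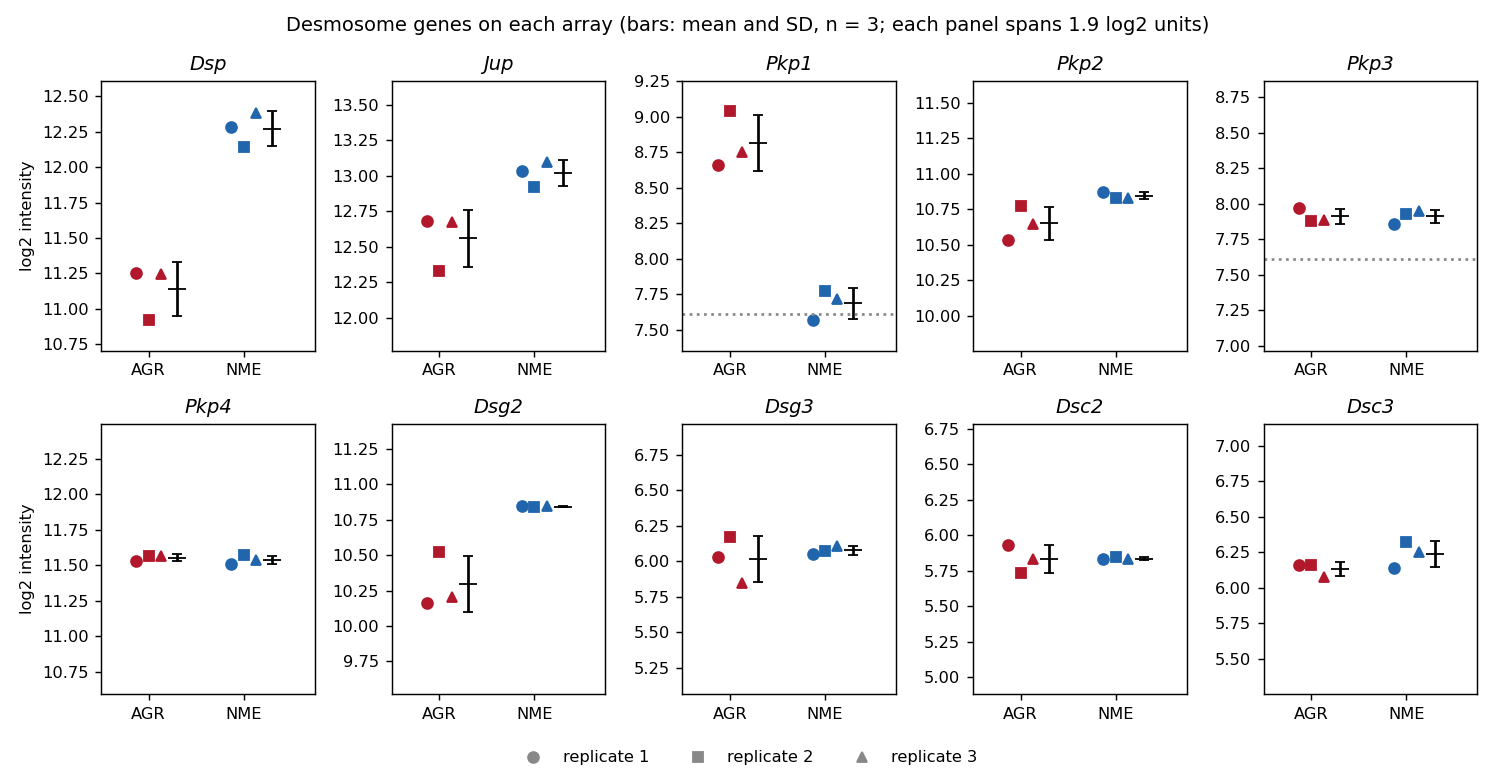
Log2 intensity (y axis) of the 10 desmosome genes on each AGR array (red, left) and NME array (blue, right), with the mean and SD of 3 arrays beside the points and the median of all probe sets (7.61) dotted where it lies in the panel. The AGR and NME arrays do not overlap for Dsp, Jup, Pkp1, Pkp2 and Dsg2.

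Dsp encodes desmoplakin, which ties the plaque to the keratin filaments. Its log2 intensity was 11.26, 10.92 and 11.25 on the AGR arrays and 12.28, 12.14 and 12.38 on the NME arrays. All AGR arrays were lower than all NME arrays, and the lowest array of either cell line was replicate 2. The mean was 11.14 ± 0.19 in AGR cells and 12.27 ± 0.12 in NME cells (SD, n = 3 each), and the log2 FC was -1.13 (95% interval -1.39 to -0.87, SE 0.11, limma adjusted p = 4.95e-04). Dsp was thus 2.19-fold lower in AGR cells, but stayed bright in both.

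Jup encodes plakoglobin, an armadillo protein that also joins adherens junctions. It gave 12.68, 12.33 and 12.67 on the AGR arrays and 13.04, 12.92 and 13.10 on the NME arrays. The groups did not overlap, and replicate 2 was again the lowest of each cell line. With means of 12.56 ± 0.20 in AGR cells and 13.02 ± 0.09 in NME cells (SD, n = 3 each), the log2 FC was -0.46 (SE 0.11, limma adjusted p = 0.0191), which is 1.38-fold lower. This call was lost without NME replicate 1 (adjusted p = 0.0776) and without NME replicate 3 (adjusted p = 0.0809).

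Dsp fell further than Jup. Within an array, the log2 ratio of Dsp to Jup was -1.42, -1.41 and -1.43 on the AGR arrays and -0.75, -0.78 and -0.72 on the NME arrays. The ratio differed little among arrays of a cell line, although each gene was low on replicate 2. The shift of -0.67 had an exact permutation p of 0.10 (two-sided), the smallest that 3 against 3 arrays can give, and an adjusted p of 0.14 over the 7 ratios computed, which were chosen after the values were seen.

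Sequences upstream of both genes are shown because these plaque genes fell together. They were taken from RefSeq (GRCm38.p6) windows that ran from 250 bases before to 50 after a transcript start. Such windows were used for Dsp, Jup and Pkp4. None were available for Pkp1, Pkp2 and Pkp3, and the search left out Dsg2, Dsg3, Dsc2 and Dsc3. From these upstream stretches, bases inside the annotated genes were left out, so the Jup stretch stops 49 bases before the start of its window's transcript. Each line runs 5′ to 3′ on the strand of the gene, from chr13:38151044-38151293 (+) for Dsp and chr11:100397840-100398040 (-) for Jup.
Dsp: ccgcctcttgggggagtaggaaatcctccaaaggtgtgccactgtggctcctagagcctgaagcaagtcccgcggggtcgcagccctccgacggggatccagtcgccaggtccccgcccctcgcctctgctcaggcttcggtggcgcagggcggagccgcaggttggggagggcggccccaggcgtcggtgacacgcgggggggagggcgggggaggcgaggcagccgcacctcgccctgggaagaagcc
Jup: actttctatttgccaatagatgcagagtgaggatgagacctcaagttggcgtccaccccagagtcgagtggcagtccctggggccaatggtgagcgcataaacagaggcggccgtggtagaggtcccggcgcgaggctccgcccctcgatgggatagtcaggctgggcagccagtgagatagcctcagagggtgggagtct
The 300-base windows were searched on both strands for the E-box core that ZEB and SNAI repressors bind (CACCTG or CAGGTG), the paired GRHL site (AACCNGTT or AACNGGTT), the AP-1 site (TGANTCA) and a TEAD site (GGAATG or CATTCC). No match overlapped another in the windows shown. They occurred in 20.2%, 2.09%, 7.81% and 14.7% of all 32851 windows. The Jup window held no match. The Dsp window held 1 E-box core, at bases 4 to 9 counted from the start of the transcript, shown in capitals with its surroundings (chr13:38151288-38151311, +).
Dsp E-box: gaagccgacCAGGTGtggcctggg
Of the 2 Pkp4 windows, 1 held an E-box core and 2 TEAD sites. These matches describe letters only, and binding was not measured.

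Of the desmosomal cadherins among the 10 genes, Dsg2 alone lay above the median of all probe sets. Dsg2, the desmoglein of simple epithelia, gave 10.16, 10.52 and 10.20 on the AGR arrays and 10.84, 10.84 and 10.84 on the NME arrays. The NME arrays were nearly equal and all above the AGR arrays, of which replicate 2 was the highest. The log2 FC was -0.55 (SE 0.10, 95% interval -0.77 to -0.32, adjusted p = 0.00663 from limma), or 1.46-fold lower in AGR cells. Cdh1, the classical cadherin E-cadherin, had a log2 FC of -0.60 (SE 0.06).

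The other desmosomal cadherins gave dim signals in both cell lines. Dsg3, the desmoglein of basal keratinocytes, averaged 6.02 ± 0.16 in AGR cells and 6.08 ± 0.03 in NME cells (SD, n = 3 each). Dsc2, the desmocollin of simple epithelia, averaged 5.83 ± 0.10 in AGR cells and 5.84 ± 0.01 in NME cells, and Dsc3, a desmocollin of stratified epithelia, 6.13 ± 0.05 in AGR cells and 6.24 ± 0.09 in NME cells (SD, n = 3 each). The groups overlapped for all 3 genes. Their log2 FCs were -0.06 (95% interval -0.26 to 0.14) for Dsg3, -0.00 (-0.14 to 0.13) for Dsc2 and -0.11 (-0.25 to 0.04) for Dsc3, and none passed (adjusted p = 0.692, 0.976 and 0.287 from limma). Without detection calls, signal and background could not be separated at these levels, so a change of these transcripts may have gone unseen. The Dsc2 value was identical on 3 of the 6 arrays, AGR replicate 3 and NME replicates 1 and 3, and such repeats were found for 12.8% of all genes.

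The desmogleins and desmocollins are neighbours in the genome. In the order of the RefSeq gene table they run Dsc3, Dsc2, Dsc1, Dsg1c, Dsg1a, Dsg1b, Dsg4, Dsg3 and Dsg2, followed by Ttr and B4galt6, and the protein-coding gene before Dsc3 is Cdh2, which encodes N-cadherin. Dsc1 and Dsg1a had no probe set of their own here. Every measured desmoglein or desmocollin gene other than Dsg2 averaged between 5.48 and 6.34 in AGR cells and between 5.84 and 6.37 in NME cells. The gene beside Dsg2, Ttr, which encodes the plasma transport protein transthyretin, had a much greater difference than Dsg2. It gave 7.56, 7.62 and 7.14 on the AGR arrays and 12.72, 12.31 and 12.65 on the NME arrays, which is a log2 FC of -5.12 (SE 0.16, limma adjusted p = 4.48e-06). B4galt6, the next gene, which encodes a galactosyltransferase, had a log2 FC of -0.59 (SE 0.08, adjusted p = 0.00195). On the other side of the cluster Cdh2 was higher in AGR cells, with a mean of 12.91 in AGR cells and 11.30 in NME cells and a log2 FC of 1.60 (SE 0.07, adjusted p = 1.50e-05). Dsg2, Ttr and B4galt6 at one end of the cluster were thus lower, and Cdh2 at the other end was higher.

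**Figure D2:**
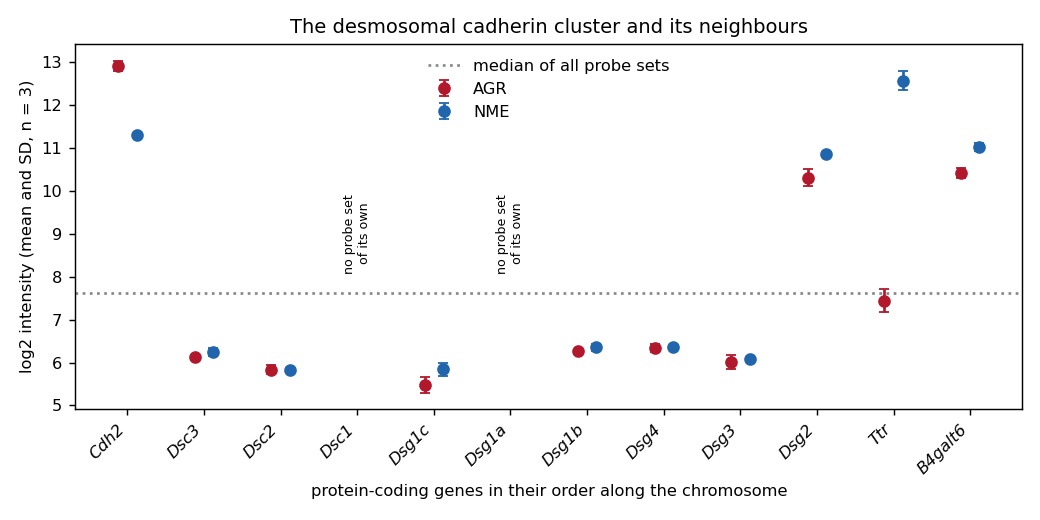
Mean log2 intensity with SD of 3 arrays (y axis) of the cadherin cluster genes and their neighbours in genome order (x axis) in AGR cells (red) and NME cells (blue), with the median of all probe sets, 7.61, dotted. Dsg2, Ttr and B4galt6 lie above that line in NME cells and are lower in AGR cells, Cdh2 lies above it and is higher in AGR cells, and the other measured genes lie below it in both.

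The 4 plakophilin genes did not move alike. Pkp1, the plakophilin of stratified epithelia, which clusters desmosome components, gave 8.66, 9.04 and 8.75 on the AGR arrays and 7.57, 7.77 and 7.72 on the NME arrays. All AGR arrays were higher, with replicate 2 the highest of each cell line. Its mean was 8.82 ± 0.20 in AGR cells and 7.68 ± 0.11 in NME cells (SD, n = 3 each), with a log2 FC of 1.13 (SE 0.11, 95% interval 0.88 to 1.38, adjusted p = 4.61e-04 from limma), or 2.19-fold higher in AGR cells. In NME cells Pkp1 lay close to the median of all probe sets.

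Pkp2, the most widely expressed plakophilin and the one of simple epithelia and heart, gave 10.54, 10.77 and 10.65 on the AGR arrays and 10.87, 10.83 and 10.83 on the NME arrays. The AGR arrays were all lower, by little, and the log2 FC of -0.19 (SE 0.06, 95% interval -0.35 to -0.04) did not pass (adjusted p = 0.0776 from limma). It passed without AGR replicate 2, with a log2 FC of -0.25 (adjusted p = 0.0164), and after quantile normalization. The log2 ratio of Pkp1 to Pkp2 within an array was -1.87, -1.73 and -1.90 on the AGR arrays and -3.31, -3.06 and -3.12 on the NME arrays. The ratio shifted by 1.33 toward Pkp1 in AGR cells. Its exact permutation p was 0.10 (two-sided), again the smallest possible, and 0.14 after adjustment over the 7 ratios chosen after the values were seen.

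Pkp3 and Pkp4 had the narrowest intervals among the 7 bright genes. Pkp3, found in desmosomes of most epithelia, averaged 7.91 ± 0.05 in AGR cells and 7.91 ± 0.05 in NME cells (SD, n = 3 each), with a log2 FC of 0.00 (95% interval -0.12 to 0.12, adjusted p = 0.992 from limma). Pkp4, also known as p0071 and found in adherens junctions as well, averaged 11.55 ± 0.02 in AGR cells and 11.54 ± 0.03 in NME cells (SD, n = 3 each), with a log2 FC of 0.01 (95% interval -0.08 to 0.11, adjusted p = 0.852). For Pkp4, which was bright, the interval leaves out changes above 0.11 on the log2 scale in these arrays, whereas Pkp3 lay near the median of all probe sets.

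**Figure D3:**
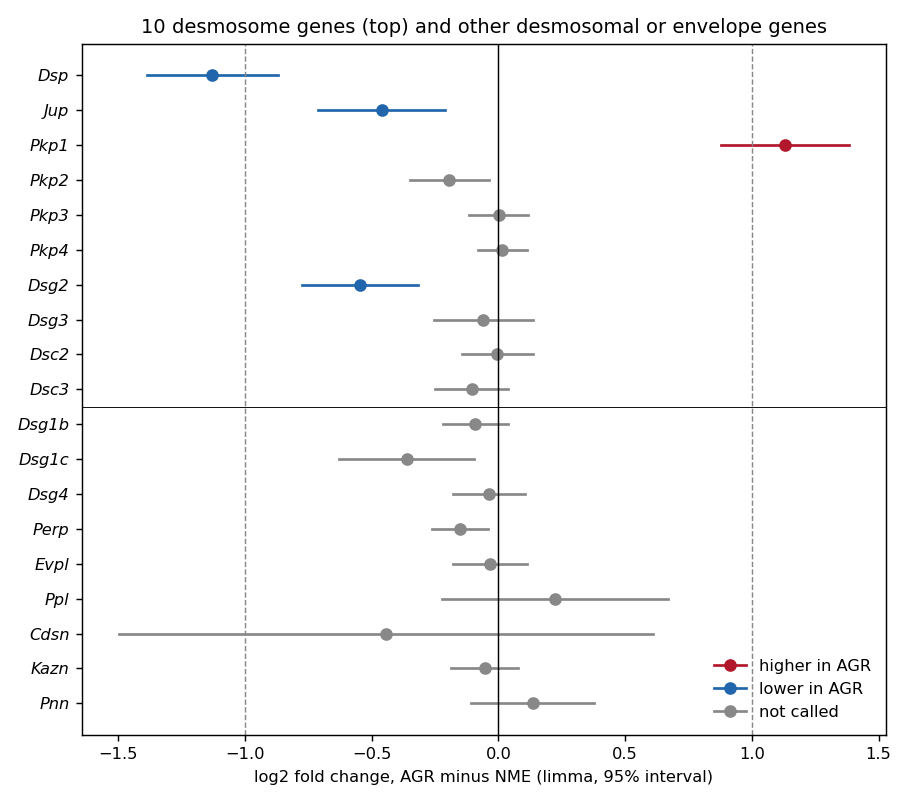
AGR over NME log2 fold change (x axis) with its 95% interval from limma of the 10 desmosome genes above the line and of 9 other desmosomal or envelope genes below it. Dsp (-1.13) and Pkp1 (1.13) lie past the dashed lines at a FC of 2, Jup and Dsg2 fell by less, and the interval of Cdsn is the widest.

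AGR replicate 2 stood apart from the other AGR arrays. It differed more than 2-fold from their mean in 36 genes, against 7 and 0 genes for the other AGR arrays and at most 1 for the NME arrays. Among the desmosome genes it was 1.26-fold lower for Dsp and 1.27-fold lower for Jup, and 1.26-fold higher for Pkp1 and 1.27-fold higher for Dsg2. Without it the log2 FC was -1.02 for Dsp, -0.34 for Jup, -0.66 for Dsg2 and 1.02 for Pkp1, all still past the threshold (adjusted p between 2.75e-04 and 0.0110 from limma), and 4 genes were lower, Pkp2 included. In that fit 12.9% of all genes were lower. In both cell lines, replicate 2 had the lowest Dsp, Jup and Ppl and the highest Pkp1 and Cdsn. Correlations of log2 intensities over all probe sets were 0.995 to 0.997 between arrays of a cell line and 0.986 to 0.988 between cell lines, and array medians lay between 190.4 and 201 on the linear scale.

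**Figure D4:**
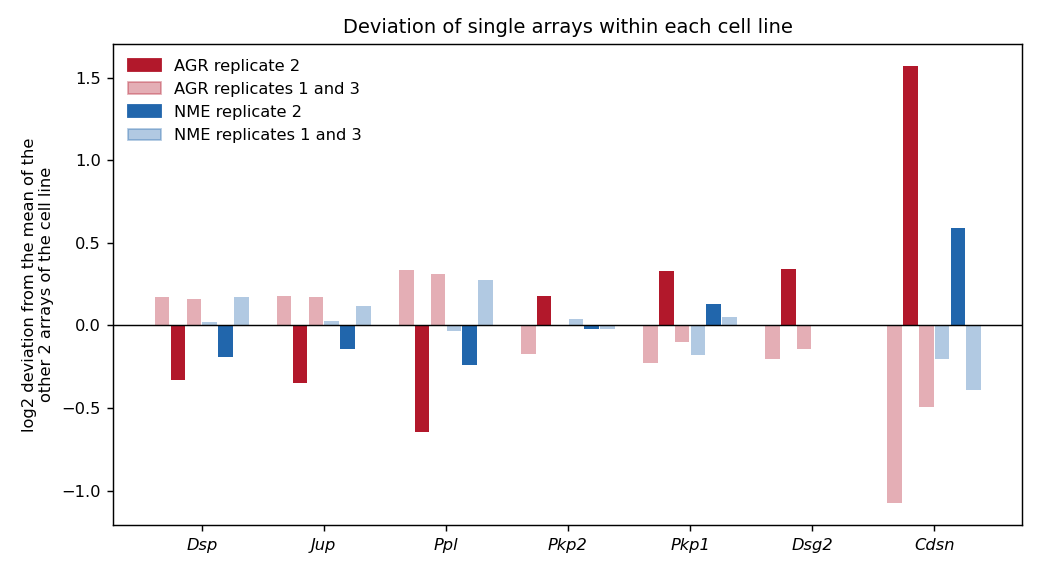
Deviation of each array from the mean of the other 2 arrays of its cell line (y axis, log2) for 7 genes, AGR in red and NME in blue, with replicate 2 in full colour. Replicate 2 of both cell lines is low for Dsp, Jup and Ppl and high for Pkp1 and Cdsn, and the deviation of AGR replicate 2 for Cdsn reaches 1.57.

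Other proteins of desmosomes and of the envelope they anchor were followed in a list of 11 genes, 9 of them measured. None passed the limma test over all 6 arrays, with 0 higher and 2 lower at an unadjusted p under 0.05 and a median log2 FC of -0.05. Perp, a membrane protein needed for desmosome assembly in skin, was 10.92 ± 0.05 in AGR cells and 11.07 ± 0.04 in NME cells (SD, n = 3 each), with an adjusted p of 0.0550. It passed as lower after quantile normalization, when dim genes below the median were dropped and with an offset of 16 (adjusted p between 0.0419 and 0.0479 from limma), and Dsg1c passed as lower with a trended, robust variance (adjusted p = 0.0470). Cdsn encodes corneodesmosin, which joins cornifying cells. It gave 9.45, 11.21 and 9.83 on the AGR arrays and 10.48, 11.00 and 10.35 on the NME arrays, so replicate 2 lay above all NME arrays while the other AGR arrays lay below them. Ppl, which encodes the plakin periplakin, gave 10.56, 9.91 and 10.54 on the AGR arrays and 10.09, 9.95 and 10.30 on the NME arrays. Without AGR replicate 2 these genes passed, Cdsn lower with a log2 FC of -0.97 and Ppl higher with 0.44 (adjusted p = 0.0243 and 0.0267 from limma), as did the nuclear and desmosome-associated Pnn, higher with 0.26, and Dsg1c, lower with -0.45. A probe set shared by Dsg1a, Dsg1b and Dsg1c averaged 6.09 in AGR cells and 6.33 in NME cells, in the dim range.

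Keratins are the filaments that desmoplakin holds. Of 14 keratin genes, 3 were lower and 1 was higher in AGR cells, with a median log2 FC of -0.09. Of all genes, 11.6% were lower and 12.6% were higher, which also holds beside the lists below. The main pair of simple epithelia, Krt8 and Krt18, was very bright and did not pass, with log2 FCs of -0.10 (SE 0.04) and -0.05 (SE 0.04). Krt19, a keratin of simple epithelium, had a log2 FC of -1.04, near that of Dsp, Krt20 had -0.80 and the dim Krt23 had -0.37, whereas Krt80 rose by 1.40 on the log2 scale. The Krt23 call was lost without NME replicate 2, NME replicate 3 or AGR replicate 3.

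Adherens junctions share plakoglobin with desmosomes but hold actin. Of 15 adherens junction genes, 8 were higher and 2 were lower (12.6% and 11.6% of all genes), with a median log2 FC of 0.18. The number higher was 6 without NME replicate 1, NME replicate 3, AGR replicate 1 or AGR replicate 3. It was 4 with a FC above 1.5 as a further condition. Of all genes, 8.8% to 10.7% were higher with these arrays left out, and 4.28% with that FC. Cdh2 had the log2 FC of 1.60 given above, the nectin gene Nectin1 1.46, Vcl, which encodes the actin linker vinculin, 0.94, and Nectin2 0.72. The genes that fell were Cdh1 and Ctnnb1, which encodes β-catenin, the closest relative of plakoglobin, with a log2 FC of -0.21 (SE 0.05). The Ctnnb1 call was lost after quantile normalization or median centring and without NME replicate 1, NME replicate 3 or AGR replicate 1. Of 8 measured hemidesmosome genes, which tie keratin to the matrix, Itgb4 was lower with -0.66, and Itga6 and Lamb3 were higher with 0.39 and 0.25. The Lamb3 call was lost without any single NME array and without AGR replicate 3. It was also lost when all probe sets were tested singly (adjusted p = 0.0516 from limma) and with the methods' t-test after adjustment (adjusted p = 0.0873). The keratin linkers Plec and Dst, plakins like desmoplakin, had log2 FCs of 0.16 and 0.30 that did not pass (adjusted p = 0.157 and 0.0745 from limma). Dst passed as higher with a replicate block, after median centring, when dim genes below the median were dropped and without NME replicate 2 (adjusted p between 0.00856 and 0.0459).

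**Figure D5:**
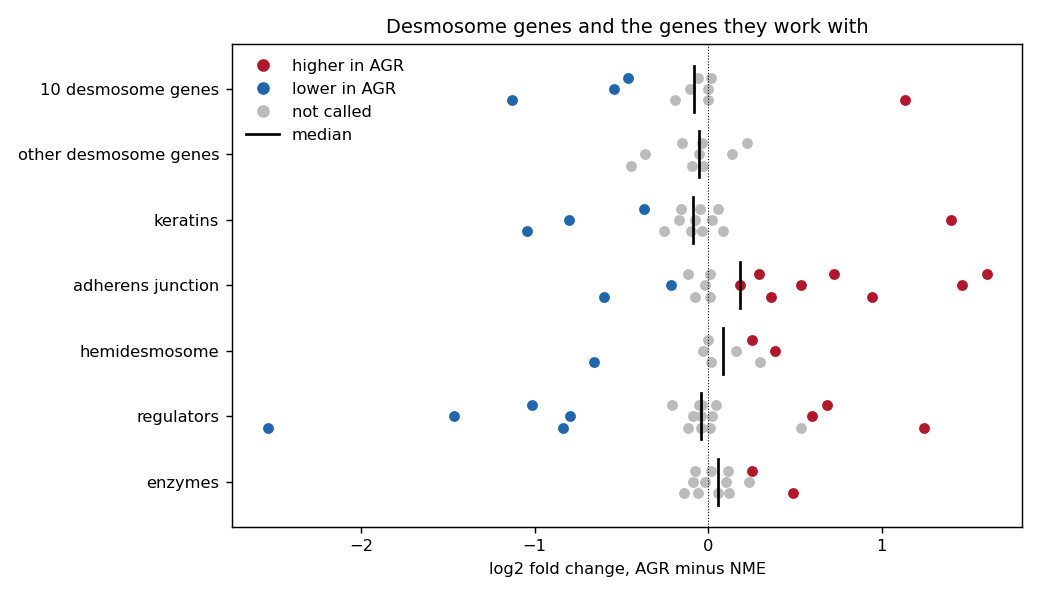
AGR over NME log2 fold change (x axis) of every measured gene of 7 lists (rows), red where AGR cells were called higher, blue where they were called lower and grey otherwise, with the list median in black. The median is -0.08 for the 10 desmosome genes, 0.18 for adherens junction genes and -0.09 for keratins.

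Regulators of epithelial junction genes were read from the same arrays. Of 19 measured, 5 were lower and 3 were higher. Those that fell were the epithelial ETS factor genes Ehf and Elf3, with log2 FCs of -2.54 and -1.46, Klf4 with -1.01, Tfap2a with -0.84, and Esrp2, which encodes an epithelial splicing factor, with -0.80. Those that rose encode repressors of epithelial genes, Zeb2 with 1.24, Snai1 with 0.68 and Zeb1 with 0.60. Zeb1 had the same value on all 3 NME arrays, 9.95. Snai2 did not pass (log2 FC 0.53, adjusted p = 0.247), with 10.63, 11.83 and 11.09 on the AGR arrays and 10.59, 10.77 and 10.59 on the NME arrays. The grainyhead genes Grhl1, Grhl2 and Grhl3, whose products control desmosome genes in skin, had log2 FCs between -0.21 and 0.04, and none passed over all 6 arrays. Grhl2 was dim (6.63 in AGR cells and 6.59 in NME cells), and Grhl1 and Grhl3 lay near the median of all probe sets. A change of these transcripts may therefore have gone unseen. Grhl1 passed as lower without AGR replicate 2, with -0.29 (adjusted p = 0.0432). Of 13 enzymes known to act on desmosome proteins, the protease gene Adam15 and the methyltransferase gene Prmt1 were higher, with 0.49 and 0.25, and none was lower (1 at an unadjusted p under 0.05). That gene, Zdhhc5, which encodes a palmitoyl transferase, had a log2 FC of -0.14 (adjusted p = 0.0558 from limma) and passed as lower with a trended, robust variance, with an offset of 16 and with the methods' t-test after adjustment (adjusted p between 0.0335 and 0.0398). The Prmt1 call was lost without any single NME array and without AGR replicate 3 (adjusted p between 0.0900 and 0.138). It was also lost when all probe sets were tested singly (adjusted p = 0.0742 from limma) and with the methods' t-test after adjustment (adjusted p = 0.125). Egfr, whose product phosphorylates plakoglobin and Dsg2, had a log2 FC of 0.23 (SE 0.10, adjusted p = 0.139).

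Markers of cell types were summed over the genes of a list on the linear scale. The sum of the 10 mammary epithelium markers, of which Cdh1 and Krt19 were lower and none was higher (0 at an unadjusted p under 0.05), lay between 43916 and 45141 on the AGR arrays and between 55639 and 56254 on the NME arrays. Krt8, Krt18, Krt19 and Cdh1 were bright, whereas Epcam (6.51 in AGR cells and 6.58 in NME cells), Krt5, Krt14 and Cldn7 were dim in both lines. The keratinocyte list, of which 2 of 7 measured genes rose, lay between 18475 and 18686 in AGR cells and between 17330 and 17978 in NME cells. It moved with Pkp1 through Ivl, the envelope gene involucrin, with a log2 FC of 2.13, and the dim Lor with 0.40, while Krt1, Krt6a and Krt16 were dim in both cell lines. Sprr1a, another envelope gene and the brightest of the list, averaged 13.97 in AGR cells and 14.01 in NME cells, and Krt10 averaged 8.24 in AGR cells and 8.26 in NME cells, and neither passed (adjusted p = 0.538 and 0.850). The cardiac list rose through Tnnt2 alone, with a log2 FC of 1.00 (5975 to 7336 in AGR cells and 3656 to 3911 in NME cells). Myh6 and Myl2 were dim. Actc1 averaged 8.25 in AGR cells and 8.22 in NME cells, above the median of all probe sets. Myh7 (7.65 in AGR cells and 7.69 in NME cells) and Nppa (7.65 and 7.75) lay just above that median. None of these other cardiac genes passed. Fibroblast sums (1779 to 1903 in AGR cells and 1742.5 to 1925 in NME cells) and endothelium sums (731.5 to 766.1 in AGR cells and 737.6 to 815.4 in NME cells) overlapped, with Pdgfra higher among the fibroblast genes and no endothelial gene called by limma (0 at an unadjusted p under 0.05). Of 7 immune cell genes, Cd68 was higher and Cd14 lower, and their sum was 2934 to 3454 in AGR cells and 3941 to 4294 in NME cells, while Ptprc was dim in both. The part of these markers in the changes of the desmosome genes was not tested.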

How the data were processed

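Affymetrix Mouse Gene 1.0 ST arrays were hybridized with total RNA from 3 AGR and 3 NME samples. The deposited values are intensities on a linear scale for 35557 probe sets, processed by the authors. The submitters' processing notes name MAS5 without version or settings, and as this array type has no mismatch probes the exact normalization is unknown. No detection calls or counts were used here.

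Cell lines were taken from the sample titles (the submitters' design text speaks of more groups than it lists). Log2 was taken with no offset. Of the probe sets, 21789 carried 1 gene symbol, 1621 several and 12147 none in the platform annotation. Symbols of 21698 were matched by gene ID to RefSeq (GRCm38.p6). AGR cells were set against NME cells with limma 3.58.1 under R 4.3.3 (lmFit, eBayes), with Benjamini-Hochberg adjustment over 19938 genes and calls at an adjusted p under 0.05. Intervals are 95% intervals of the moderated fit.

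The members and lists were chosen with earlier results of these data known. The text names all 10 members, up to 4 called genes of each other list in each direction, and a few junction genes and regulators fixed by name. Further genes (Dsg1b, Dsg1c, Dsg4, Perp, Cdsn, Ppl, Pnn, Plec, Dst, Zdhhc5, Sprr1a, Krt10, Krt14, Krt17, Actc1, Myh7, Nppa and the grainyhead and dim marker genes) were named after their values were seen. Promoters were searched with Python 3.11.15. Protein identity was not analysed here. The fit was tested on simulated data. Alternatives covered normalization, filters on dim genes, probe set choice, the variance model, the methods' t-test, a replicate block, an offset, each array left out in turn, and FC thresholds.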

Additional observations from a re-analysis of the deposited data

How the results depend on the processing

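Dsp and Pkp1 kept their direction and stayed past the threshold under all 19 alternatives, with log2 FCs of -1.19 to -1.02 and 1.02 to 1.21. The number of members that were lower, 3 with limma, was 1 with the methods' t-test after Benjamini-Hochberg adjustment (Dsp), where Jup had an adjusted p of 0.0989 and Dsg2 of 0.0526, and 4 with that test unadjusted. Of all genes, 7.96% and 14.5% were lower in these 2 settings. A FC above 1.5 or above 2 as a further condition also left 1, with 3.6% and 1.5% of all genes lower. Jup did not pass without NME replicate 1 or NME replicate 3. Pkp2 passed with quantile normalization, with the methods' t-test unadjusted and without AGR replicate 2. Members near 0 changed sign with no call. The log2 FC of Dsc2 was 0.014 with quantile normalization and 0.023 with median centring. When each array was left out in turn, it was -0.054 to 0.045 for Dsc2, -0.14 to 0.025 for Dsg3 and -0.029 to 0.020 for Pkp3. The difference of log2 FCs between Dsg2 and Cdh1, 0.06, was -0.013 with quantile normalization and -0.0051 to 0.090 with arrays left out. The causes were not tested. With the replicate number of the titles as a replicate block, 3 members were lower and 1 was higher, and over all genes 2312 were lower and 2728 higher. Same-numbered arrays of AGR and NME cells had correlations of deviations of -0.13, 0.33 and 0.26 for replicates 1, 2 and 3, so the numbers were not taken to pair the samples, and AGR replicate 2 alone matched its own number best.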
